A study of Mus musculus with 56 samples.

Results

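The mouse collagen genes were followed through gastrocnemius, the large calf muscle, of control and labelled HuR knockout mice. They were taken as every row of the gene count table with a protein-coding mouse symbol of the form Col, number, a, number, which gave 44 genes of 57010 in the table. Of the 44, 31 had enough counts to be tested in total RNA and 12 in ribosomal RNA. The other 13 genes had between 2 counts (Col6a4) and 273 counts (Col19a1) summed over all 56 libraries. They were Col2a1, Col4a3, Col4a6, Col6a4, Col6a5, Col9a2, Col9a3, Col10a1, Col17a1, Col19a1, Col25a1, Col26a1 and Col28a1.

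All mice, controls included, carried the ribosomal protein L10A tagged with GFP, switched on by Cre recombinase under the Mlc1f promoter, which is active in fast muscle fibres. The labelled knockouts also carried a floxed Elavl1 gene, which codes for the RNA-binding protein HuR, so that the deletion was aimed at muscle fibres and not at the fibroblasts and vessel cells between them. Mice were 20 to 22 weeks old. There were 28 libraries of ribosomal RNA, isolated through the tagged ribosomes, and 28 of total RNA from whole homogenate, under the same 28 combinations of sex, genotype and number. A shared number was taken here as the same mouse, which the labels do not state, and the submitters' texts give the number of mice of each sex both as 7 and as 14. The 8 groups were therefore female control, female labelled knockout, male control and male labelled knockout in each RNA type, with 7 libraries in each. The labels do not say which part of Elavl1 is floxed.

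Collagens are proteins of the extracellular matrix in which 3 chains wind into a triple helix. Types I, III and V form the fibrils that carry load in muscle connective tissue, types XII and XIV sit on the surface of those fibrils, type IV builds the basement membrane around each fibre and vessel, and type VI forms beaded filaments next to it. Most of the fibrillar chains are made by fibroblasts and tendon cells, while type IV chains are also made by endothelial cells. HuR binds AU-rich and U-rich stretches in mRNA and is best known for stabilising its targets.

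The libraries read the 3' end of transcripts, so that levels in counts-per-million units (CPM) are not scaled by transcript length and a gene gives about 1 tag per transcript. Total RNA libraries held 2427655 to 5848058 gene counts, with 3440 to 15712 counts in collagens. Ribosomal libraries were shallower, with 160313 to 3579221 gene counts and only 50 to 819 in collagens, and their collagen values carry a larger counting error. Elavl1 did not separate the groups: in total RNA it lay between 65.8 and 113.8 CPM in female controls and between 71.9 and 95.4 CPM in female labelled knockouts, and between 71.4 and 122.2 CPM in male controls and between 51.5 and 97.6 CPM in male labelled knockouts. In ribosomal RNA it averaged 87.7 ± 14.5 CPM in female controls and 105.8 ± 20.1 CPM in female labelled knockouts, and 56.97 ± 8.45 and 66.5 ± 16.98 CPM in males (SD, n = 7 each). A tag at the 3' end may lie outside the deleted part, so this neither checks nor contradicts the labels. As a check of the tissue, Ckm, muscle creatine kinase, averaged 5262 CPM in total RNA and 14480 CPM in ribosomal RNA of female controls.

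In total RNA of female controls the type I chain Col1a2 made up 27.9% ± 2.35 (SD, n = 7) of all collagen counts. Col1a1, the partner chain of type I, followed with 11.6% ± 1.08, then Col3a1, the chain of type III, with 10.6% ± 1.47, and these neighbours did not differ beyond their spread. Col6a3, the long chain of type VI, took 8.67% ± 0.812 and the basement membrane chain Col4a1 took 8.53% ± 1.48. Col4a2 with 3.96% ± 0.685, Col6a1 with 3.26% ± 0.219 and Col6a2 with 3.24% ± 0.362 came next. Male controls had the same 6 genes in front, Col1a2 at 30.3% ± 1.74 and Col4a1 at 7.83% ± 0.441. Per sample, the 2 type I chains kept a narrow proportion: the ratio of Col1a2 to Col1a1 counts averaged 2.42 ± 0.264 in controls and 2.27 ± 0.106 in labelled knockouts of the females, and 2.38 ± 0.0968 and 2.37 ± 0.163 in those of the males (SD, n = 7 each, total RNA). The ratio of Col4a1 to Col4a2 counts averaged 2.16 ± 0.103, 2.19 ± 0.202, 2.41 ± 0.245 and 2.31 ± 0.176 in the same order. Each ratio overlapped between labelled knockouts and controls.

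In total RNA of females, collagens of the fibrils and of the beaded filaments were higher in labelled knockouts, and the main basement membrane chains were not detectably changed. Of 31 collagens tested, 14 rose and none fell, where 3.79% of all 12860 genes tested rose and 4.7% fell. The median log2 fold change of the 31 was 0.54, beside 0.01 over all genes. All collagens summed lay between 1287 and 2052 CPM in the 7 controls and between 2546 and 3345 CPM in the 7 labelled knockouts, so the groups did not overlap. How many of all genes show no overlap was not counted, so such separation, here and below, only describes the libraries of the collagens named. Because these are bulk samples, more collagen-making cells and more collagen RNA per cell cannot be told apart.

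Among the fibril-forming collagens, 9 of 10 tested rose in females. Col1a2 had 307, 531 and 621 CPM as lowest, median and highest of 7 controls and 723, 854 and 1154 CPM in labelled knockouts. Every labelled knockout was above every control, and the log2 fold change was 0.88 ± 0.14 (standard error, as for all fold changes below; edgeR adjusted p = 7.8e-05). Col1a1 ran from 126.0 over 219 to 273 CPM in controls and from 309 over 367 to 542 CPM in labelled knockouts, again without overlap, with a log2 fold change of 0.97 ± 0.15 (edgeR adjusted p = 0.000107). Type III showed the same separation. Its chain Col3a1 ran from 104.0 over 203 to 246 CPM in controls and from 322 over 344 to 420 CPM in labelled knockouts, a log2 fold change of 0.93 ± 0.17 (edgeR adjusted p = 0.000732). The chains of type V, which sits inside type I fibrils and helps to set their width, rose less: Col5a1 by 0.54 ± 0.17, Col5a2 by 0.53 ± 0.15 and Col5a3 by 0.45 ± 0.10 on the log2 scale, with edgeR adjusted p = 0.0439, 0.0263 and 0.00482. Col5a3 went from 34.4, 46.2 and 58.6 CPM (lowest, median, highest) to 53.7, 62.8 and 70.9 CPM, and 5 of 7 labelled knockouts were above every control. The type XI chains Col11a1 and Col11a2 rose by 0.72 ± 0.22 and 0.81 ± 0.24, and Col27a1 by 0.59 ± 0.19 (edgeR adjusted p = 0.0369, 0.0297 and 0.0481). These 3 did not pass without the 5 total RNA libraries in which over 19% of reads fell outside genes (0.65, 0.65 and 0.49, edgeR adjusted p = 0.0577, 0.098 and 0.0852). The remaining fibril-forming member, Col24a1, scattered from 5.62 to 103.7 CPM among female labelled knockouts and did not pass (log2 fold change 0.87 ± 0.44, edgeR adjusted p = 0.226).

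All 3 main chains of the beaded filament collagen, type VI, rose in females, and a loss of this collagen is a known cause of human muscle disease. Col6a3 ran from 119.7 over 152 to 171 CPM in controls and from 206 over 226 to 251 CPM in labelled knockouts. Col6a2 ran from 37.0 over 56.8 to 76.5 CPM and from 82.2 over 91.3 to 103.8 CPM, and Col6a1 from 41.5 over 61.6 to 64.2 CPM and from 73.0 over 78.4 to 99.1 CPM. In none of the 3 did the groups overlap, without a share of all genes to set beside it. Their log2 fold changes were 0.65 ± 0.10, 0.71 ± 0.13 and 0.54 ± 0.13, with edgeR adjusted p = 9.96e-05, 0.000499 and 0.0105. Col6a6, an alternative to the third chain, did not pass (0.49 ± 0.16, edgeR adjusted p = 0.0568).

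Of 6 fibril-associated collagens tested, only Col14a1 rose in females. It ran from 16.8 over 25.7 to 32.7 CPM in controls and from 27.8 over 50.0 to 61.8 CPM in labelled knockouts, with 6 of 7 labelled knockouts above every control (log2 fold change 0.87 ± 0.15, edgeR adjusted p = 0.000332). Col12a1, its relative on the fibril surface, had a log2 fold change of 0.62 ± 0.21 that did not pass (edgeR adjusted p = 0.0634). Col22a1, a collagen of the junction between muscle fibre and tendon, was the exception in direction, with 25.4 CPM as the median of female controls and 15.8 CPM in labelled knockouts, and did not pass (log2 fold change -0.40 ± 0.17, edgeR adjusted p = 0.143). Col15a1, a multiplexin of the basement membrane zone, rose by 0.57 ± 0.13 (edgeR adjusted p = 0.00416), from 22.4, 41.9 and 52.0 CPM (lowest, median, highest) to 51.1, 59.0 and 77.2 CPM.

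No type IV chain passed in total RNA of females. Col4a1 ran from 124.5 over 147 to 159 CPM in controls and from 136.5 over 153 to 177 CPM in labelled knockouts, with broad overlap (log2 fold change 0.12 ± 0.08, edgeR adjusted p = 0.38). Col4a2 ran from 60.2 over 67.4 to 73.9 CPM and from 61.4 over 69.7 to 81.8 CPM (0.10 ± 0.09, edgeR adjusted p = 0.535). The standard errors of these 2 chains were the smallest of the 31 collagens. Col4a5 and Col4a4 did not pass in females either (0.66 ± 0.22 and 0.24 ± 0.15).

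The female count fell from 14 to 9 when female control 14, female control 21 or female labelled knockout 10 was left out. The 9 collagens that passed in all 14 such refits were Col1a1, Col1a2, Col3a1, Col5a3, Col6a1, Col6a2, Col6a3, Col14a1 and Col15a1. Without the 5 libraries, which include female control 14 and female labelled knockout 9, 12 rose and 2 fell. Col6a6 (0.56, edgeR adjusted p = 0.024) was then among those that rose, and Col22a1 (-0.57, edgeR adjusted p = 0.0222) and Col7a1 (-1.23, edgeR adjusted p = 0.00619) were those that fell.

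**Figure D1:**
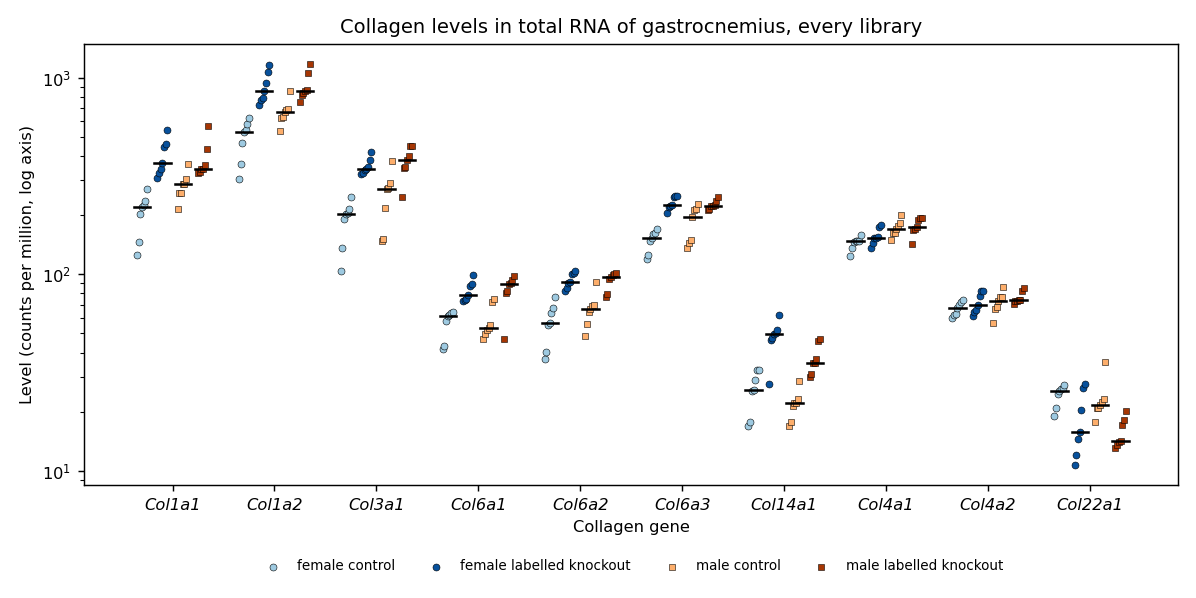
Level of 10 collagens in every total RNA library (CPM, log axis), with 1 point per library, 7 libraries per group and a bar at the group median. In females the labelled knockouts lie above all controls for Col1a1, Col1a2, Col3a1, Col6a1, Col6a2 and Col6a3, while Col4a1 and Col4a2 overlap in both sexes and the medians of Col22a1 are lower in labelled knockouts.

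In total RNA of males, collagens that passed were mostly higher in labelled knockouts too. Of 31 collagens tested, 9 rose, where 6.83% of all genes rose, and 1 fell, where 7.36% of all genes fell. The median log2 fold change of the 31 was 0.33, beside 0.00 over all genes. Summed collagens ran from 1734 over 2174 to 2777 CPM in controls and from 2413 over 2778 to 3353 CPM in labelled knockouts, with 4 of 7 labelled knockouts above every control. The male count depended on which libraries were kept. Without the 5 total RNA libraries in which over 19% of reads fell outside genes, which include male controls 25, 26 and 27, only Col14a1 rose and no collagen fell. That refit had fewer male controls, and the share of all genes called in it is not given. The effect of fewer libraries therefore cannot be told apart from smaller differences. Log2 fold changes of that refit are given below. Leaving out only male control 26, male control 27 or male labelled knockout 13 gave 5 that rose. The 4 collagens that rose in each of the 14 refits without 1 library were Col6a1, Col6a2, Col12a1 and Col14a1.

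Col14a1 was the male collagen of lowest p. It ran from 17.02 over 22.1 to 28.5 CPM in controls and from 29.9 over 35.4 to 46.8 CPM in labelled knockouts, and here every labelled knockout was above every control (log2 fold change 0.75 ± 0.16, edgeR adjusted p = 0.00261; without the 5 libraries 0.62, adjusted p = 0.0113). Col12a1 also rose, from 6.62, 11.3 and 12.99 CPM to 12.6, 17.97 and 37.3 CPM (0.82 ± 0.21, edgeR adjusted p = 0.00909), with 6 of 7 labelled knockouts above every control. Both coat the surface of collagen fibrils. Without the 5 libraries, Col12a1 had a log2 fold change of 0.71 that did not pass (edgeR adjusted p = 0.059).

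For type VI in males, Col6a1 rose by 0.51 ± 0.13, Col6a2 by 0.47 ± 0.13 and Col6a3 by 0.30 ± 0.10 on the log2 scale (edgeR adjusted p = 0.013, 0.0145 and 0.0417). Col6a1 ran from 46.9 over 53.1 to 74.7 CPM in male controls and from 46.7 over 89.0 to 97.6 CPM in labelled knockouts. Male labelled knockout 2 was the low value there, below every control, while the other 6 were above every control. Col6a2 ran from 48.4 over 66.5 to 90.9 CPM and from 76.8 over 96.5 to 101.1 CPM, and Col6a3 from 135.7 over 196 to 229 CPM and from 213 over 224 to 248 CPM. Without the 5 libraries the 3 log2 fold changes were 0.36, 0.31 and 0.08 and none passed (edgeR adjusted p = 0.172, 0.176 and 0.646).

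The type I and III chains also rose in males. Col1a1 ran from 215 over 288 to 364 CPM in male controls and from 328 over 345 to 566 CPM in labelled knockouts (log2 fold change 0.45 ± 0.15, edgeR adjusted p = 0.0433). Col1a2 ran from 538 over 665 to 857 CPM and from 749 over 858 to 1172 CPM (0.44 ± 0.13, edgeR adjusted p = 0.0284), and Col3a1 from 147.7 over 271 to 378 CPM and from 248 over 380 to 448 CPM (0.59 ± 0.17, edgeR adjusted p = 0.0217). All 3 overlapped between groups, and without the 5 libraries their log2 fold changes were 0.39, 0.36 and 0.29, none of which passed (edgeR adjusted p = 0.194, 0.133 and 0.327). Col4a5, a minor basement membrane chain, rose by 0.70 ± 0.21 (edgeR adjusted p = 0.0224), from 3.37, 4.601 and 7.77 CPM to 5.05, 8.85 and 11.6 CPM, and did not pass without the 5 libraries (0.74, edgeR adjusted p = 0.0733). Col4a1 ran from 148.7 over 171 to 201 CPM and from 142.5 over 175 to 194 CPM, and Col4a2 from 56.2 over 73.3 to 85.8 CPM and from 70.3 over 73.9 to 85.3 CPM. Neither passed (0.03 ± 0.08 and 0.08 ± 0.08).

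Col22a1 was the collagen that fell in males, from 17.8, 21.7 and 35.9 CPM (lowest, median, highest) in controls to 13.1, 14.3 and 20.2 CPM in labelled knockouts. Its log2 fold change was -0.53 ± 0.17 (edgeR adjusted p = 0.0381), and 5 of 7 labelled knockouts were below every control. The call was lost without male control 20, 23, 25 or 26 or male labelled knockout 1, 6, 10, 13 or 14, with log2 fold changes between -0.59 and -0.42 over the 14 refits, and also without the 5 libraries named above (-0.49, edgeR adjusted p = 0.0924). Col7a1, the anchoring fibril collagen, had a log2 fold change of -1.03 ± 0.39 in males that did not pass (edgeR adjusted p = 0.0741).

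**Figure D2:**
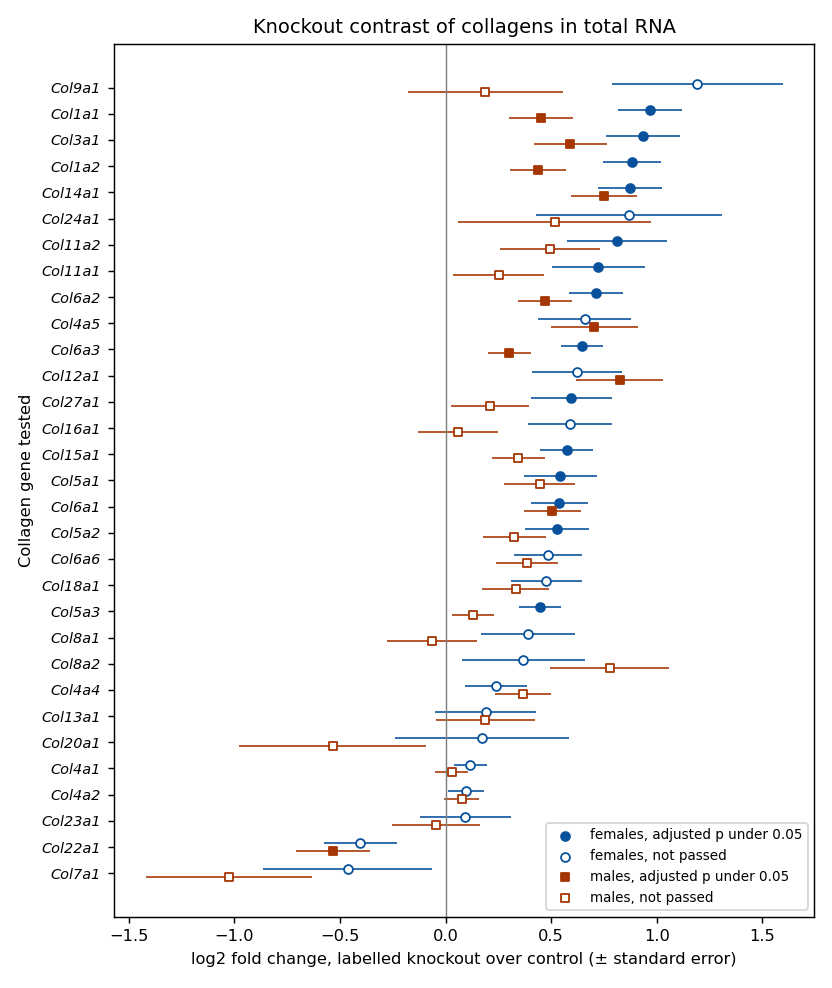
Log2 fold change of labelled knockout over control in total RNA for the 31 collagens tested (circles for females, squares for males, bars for standard errors, filled where the adjusted p is under 0.05). In 26 of the 31 the estimate is above 0 in both sexes, whether or not it passed, and in Col22a1 and Col7a1 it is below 0 in both. The share of all genes above 0 in both sexes was not counted, so the 26 only describes the plot.

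Whether the 2 sexes differed was tested directly. No collagen passed in total RNA, and neither did any of the 12860 genes (edgeR, 0%), and DESeq2 called no collagen, with 3 of the 31 left without an adjusted p. At an unadjusted p under 0.05 in edgeR there were 4 collagens, Col1a1, Col1a2, Col5a3 and Col6a3, all with a smaller rise in males. The share of all genes at that unadjusted threshold was not counted, so the 4 are not read as a sex difference of collagens. The 7 collagens that rose in both sexes were Col1a1, Col1a2, Col3a1, Col6a1, Col6a2, Col6a3 and Col14a1.

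The controls of the sexes also differed. Male controls were higher than female controls in 6 of 31 collagens and lower in none, where 4.75% of all genes were higher and 3.95% lower. The 6 were Col4a4 (log2 difference, male over female, 0.68 ± 0.14), Col6a6 (0.70 ± 0.16), Col1a2 (0.46 ± 0.13), Col4a1 (0.26 ± 0.08), Col5a3 (0.33 ± 0.10) and Col1a1 (0.47 ± 0.15), with edgeR adjusted p = 0.002, 0.00452, 0.0283, 0.0357, 0.0358 and 0.0488. Between labelled knockouts of the sexes, 2 of 31 were higher in males, where 1.84% of all genes were. These were Col4a4 (0.81 ± 0.14, edgeR adjusted p = 0.000358) and Col6a6 (0.60 ± 0.15, edgeR adjusted p = 0.0235). Col4a4, a basement membrane chain, ran from 8.98 over 11.97 to 13.9 CPM in female controls and from 15.5 over 20.2 to 22.6 CPM in male controls, without overlap. The count in controls was 2 without female control 21 or male control 22, and 3 without female control 14, female control 15 or male control 23. The count in labelled knockouts was 1 without female labelled knockout 9, female labelled knockout 10, male labelled knockout 6 or male labelled knockout 14.

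Markers of some other cell types differed too in total RNA, where 3.79% of all genes rose and 4.7% fell in females, and 6.83% and 7.36% in males. In lists this short, 1 call was not read as a change of the list. The fibroblast list of 10 genes had 5 that rose in females and 8 in males, and its summed level ran from 2028 over 3141 to 3554 CPM in female controls and from 2676 over 3898 to 4200 CPM in female labelled knockouts. In males the sum ran from 2220 over 2964 to 3532 CPM and from 3461 over 4278 to 4856 CPM. Of 8 tendon markers 3 rose in females and 4 in males, and Tnmd, tenomodulin, a gene of tendon cells, averaged 16.5 CPM in female controls and 38.7 CPM in female labelled knockouts. The 5 erythroid genes also rose in both sexes. Of 7 macrophage markers 2 rose in females and 1 in males, with sums from 80.8 to 156 CPM in female controls and from 164 to 238 CPM in female labelled knockouts, and from 85.1 to 291 and from 189 to 299 CPM in males. Of 10 endothelial markers none rose in either sex and 1, Flt1, fell in females, where 9 of 10 estimates were negative. Their sum ran from 699 to 782 CPM in female controls and from 579 to 748 CPM in female labelled knockouts, with 6 of 7 labelled knockouts below every control, and from 695 to 830 and from 713 to 858 CPM in males. Mitochondrial mRNA ran from 32930 to 38840 CPM in female controls and from 24280 to 60000 CPM in female labelled knockouts, with 4 of 7 above every control, and from 31630 to 37170 and from 27820 to 58680 CPM in males, with 6 of 7 above. Nuclear RNAs ran from 3478 to 5892 and from 2391 to 6856 CPM in females, with 4 of 7 labelled knockouts below every control, and from 3183 to 6677 and from 2426 to 3920 CPM in males, with 5 of 7 below. The 11 muscle fibre markers had none called. The part of these cells and of library composition in the collagen differences was not tested.

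Other genes of collagen biology were counted beside the shares of all genes (3.79% higher and 4.7% lower in females, 6.83% and 7.36% in males). Of 28 tested genes for collagen processing and crosslinking, 9 rose in females and 5 in males and none fell. In females the lowest p were those of Loxl2, a crosslinking oxidase (0.77 ± 0.16, edgeR adjusted p = 0.00209), Plod2, a lysyl hydroxylase (0.80 ± 0.17), Creb3l1, a transcription factor of secretory cells (0.71 ± 0.16), and Fkbp10, a collagen chaperone (0.72 ± 0.17). In males the lowest were Pcolce, an enhancer of procollagen cleavage (0.51 ± 0.14, edgeR adjusted p = 0.0171), Adamts2, a procollagen protease (0.52 ± 0.15), Creb3l1 (0.52 ± 0.15) and Bmp1, the C-proteinase (0.41 ± 0.13). Of 12 genes for collagen breakdown and its inhibitors, 3 rose and 1 fell in females and 3 rose in males. Mrc2, a receptor that takes up collagen (0.66 ± 0.21), and Fap, a fibroblast protease (0.40 ± 0.13), were the other 2 that rose in females, and Timp2 (0.40 ± 0.10) and Ctsk, cathepsin K (0.74 ± 0.21), in males. Mmp14, a membrane-bound protease, rose by 0.31 ± 0.09 in females and Mmp2, gelatinase A, by 0.65 ± 0.18 in males, while Timp4, a protease inhibitor, fell in females (-0.61 ± 0.13). Of 8 collagen receptor genes, 1 fell in females, the integrin chain Itga1 (-0.31 ± 0.10), and none changed in males. Of 17 genes of the TGF-beta pathway, a major inducer of collagen genes, 1 rose and 1 fell in females and 1 rose in males, where not all that fell are reported. Tgfb2, one of the ligands, fell in both, by 0.33 in females and 0.56 in males on the log2 scale. Smad2, which carries the signal to the nucleus, rose in females (0.44 ± 0.11), and Ltbp4 rose in males (0.45 ± 0.14).

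Promoter windows of the collagens that rose in both sexes are shown because these genes moved together. RefSeq windows on build GRCm38.p6 were found for 35 of the 44 genes, and the 3 below are the 250 bases before an annotated start that overlap no annotated exon. Capitals mark TATAAA or, on the other strand, CCGCCC, the reverse of the GC box GGGCGG. Col3a1 lies at chr1:45311288-45311537 on the plus strand, Col6a2 at chr10:76623631-76623880 on the minus strand and Col6a3 at chr1:90843972-90844221 on the minus strand.
Col3a1: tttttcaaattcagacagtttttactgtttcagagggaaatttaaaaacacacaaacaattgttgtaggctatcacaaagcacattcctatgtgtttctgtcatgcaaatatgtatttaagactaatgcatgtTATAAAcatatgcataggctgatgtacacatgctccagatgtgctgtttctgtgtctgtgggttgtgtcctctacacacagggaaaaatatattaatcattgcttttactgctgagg
Col6a2: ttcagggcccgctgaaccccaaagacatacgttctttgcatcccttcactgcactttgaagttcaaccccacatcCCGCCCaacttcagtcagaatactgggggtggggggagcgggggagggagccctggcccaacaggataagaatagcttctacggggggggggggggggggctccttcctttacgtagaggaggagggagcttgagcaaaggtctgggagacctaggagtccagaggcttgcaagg
Col6a3: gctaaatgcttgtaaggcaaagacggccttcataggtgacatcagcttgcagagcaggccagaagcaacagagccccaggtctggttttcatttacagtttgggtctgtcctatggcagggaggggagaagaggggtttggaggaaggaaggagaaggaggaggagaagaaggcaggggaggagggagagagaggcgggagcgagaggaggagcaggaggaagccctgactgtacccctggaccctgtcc
The TATAAA motif, the CCAAT box and the GGGCGG box were searched on both strands. TATAAA was in 5 of 38 collagen windows, beside 12.4% of all 32851 windows, CCAAT in 13 beside 33.8%, and GGGCGG in 22 beside 32.7%. The Col3a1 window held TATAAA, the Col6a2 window GGGCGG and the Col6a3 window none of the 3. A match describes these letters only and is not evidence of a bound site.

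Stretches of the type that HuR binds were looked for in the 3' untranslated regions, taken from GENCODE transcripts of build GRCm38. The pentamer ATTTA, the core of AU-rich elements, was in 33 of 44 collagens (75.0%), beside 65.7% of 20846 protein-coding genes, and in 3 of the 7 collagens that rose in total RNA of both sexes. The median length was 1032.5 bases for collagens and 975 for all genes. The longer element TTATTTATT was in 6 collagens (13.6%) beside 7.7% of all genes, and Col3a1 was one of them. Sites of 29 bases are shown for members that rose in total RNA of both sexes (Col1a1, Col3a1, Col6a3) and for the basement membrane chain Col4a1, with ATTTA in capitals and given as DNA.
Col3a1: taaattccagttATTTAtttccaaacttt
Col1a1: attgctccccaaATTTAagtctcccccaa
Col6a3: aatttttaggaaATTTAtacaaagaaact
Col4a1: tatatattagtaATTTAtataggtgtcag
Col1a2, Col6a1, Col6a2 and Col14a1, which also rose in both sexes, held no ATTTA in the transcript used, and neither did Col4a2. Col22a1, which fell in males, held 9. No binding was measured, so these are letters only.

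Ribosomal RNA, pulled down through ribosomes tagged in muscle fibres, held far less collagen RNA than total RNA. In controls, 30 of 31 collagens were lower in ribosomal than in total RNA and none was higher, where 43.1% of all 12546 genes tested were lower and 35.2% higher. The median log2 difference of the 31 was -2.90, beside -0.10 over all genes and 1.38 over the 11 muscle fibre markers, of which 9 were higher and 2 lower. Fibroblast markers had a median of -2.68 and endothelial markers of -2.45, close to the collagens. In labelled knockouts, 30 of 31 collagens were likewise lower, where 44% of all genes were.

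On 1 scale for both RNA types, Col1a2 had a median of 45.9 and a highest value of 67.7 CPM in ribosomal RNA, and a median of 434 and a highest value of 516 CPM in total RNA of female controls (log2 difference over both sexes -3.19 ± 0.15, edgeR adjusted p = 7.04e-28). Among controls of both sexes, every total library was above every ribosomal one for Col1a2. The 4 largest depletions in controls were those of Col24a1 (-3.89 ± 0.52), Col8a1 (-3.87 ± 0.29), Col16a1 (-3.69 ± 0.28) and Col12a1 (-3.55 ± 0.31), with edgeR adjusted p = 9.22e-10, 1.66e-18, 3.49e-18 and 5.62e-16. Their ribosomal levels were close to the limit of these libraries: in female controls Col12a1 had a median of 0 and a highest value of 1.42 CPM, against a median of 8.05 CPM in total RNA. The 4 smallest were Col9a1 (-0.61 ± 0.37, not passed, edgeR adjusted p = 0.128), Col11a2 (-1.08 ± 0.27), Col23a1 (-1.48 ± 0.29) and Col7a1 (-1.52 ± 0.30). All 4 were also low in total RNA: Col9a1 had medians of 0.70 and 1.48 CPM in ribosomal and total RNA of female controls, Col11a2 1.28 and 4.02 CPM, Col23a1 0 and 2.38 CPM, and Col7a1 5.69 and 12.9 CPM. Col22a1, the collagen of the fibre-tendon junction, was less depleted (-1.82 ± 0.18) than Col1a2 or Col3a1 (-3.16 ± 0.16), with 4.59 and 20.7 CPM as medians in female controls, and Col4a2 (-2.16 ± 0.12) was less depleted than its partner chain Col4a1 (-2.86 ± 0.13). Differences between genes in this depletion were not tested.

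**Figure D3:**
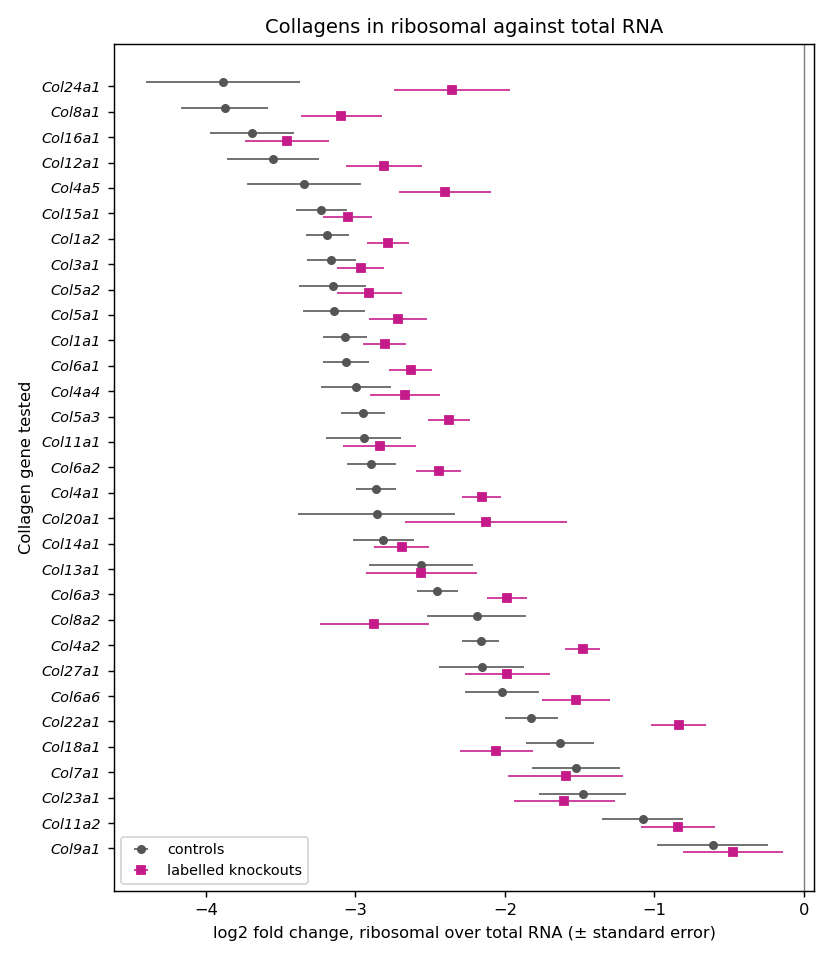
Log2 fold change of ribosomal over total RNA for the 31 collagens tested, in controls (circles) and labelled knockouts (squares), with standard errors as bars. All estimates lie below 0, from -3.89 for Col24a1 to -0.61 for Col9a1 in controls.

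In ribosomal RNA of females, collagens were higher in labelled knockouts. Of 12 collagens tested, 11 rose and none fell, where 8.44% of all 9098 genes tested rose and 8.41% fell. The filter asked for a minimum level in about as many libraries as 1 group holds, so high female labelled knockouts could bring a gene in. Col5a1 had a median of 10.9 CPM there, against 2.37, 3.31 and 3.28 CPM in female controls, male controls and male labelled knockouts. Counts of tested genes that rose, here and in the lists below, are therefore not independent of the rise. Summed collagens ran from 139.9 over 172 to 260 CPM in controls and from 281 over 403 to 888 CPM in labelled knockouts, without overlap. These rises came with a change in the whole library. The median depth was 1589142 gene counts in controls and 936900 in labelled knockouts, and the median share of reads outside genes was 5.38% and 9.11%. Mitochondrially encoded mRNA, which is not translated on the tagged cytosolic ribosomes, ran from 1319 over 2312 to 6229 CPM in controls and from 4977 over 12280 to 23930 CPM in labelled knockouts, and nuclear RNAs from 187 over 356 to 795 CPM and from 673 over 2079 to 5518 CPM. Of the mitochondrial list, mt-Atp6 was at 0 in female controls and mt-Co2 and mt-Co3 averaged 0.0378 and 0.338 CPM. Markers of fibroblasts (7 of 10), endothelium (7 of 7), macrophages (3 of 3) and erythroid cells (5 of 5) rose too, among the genes tested. Their summed levels in controls and labelled knockouts ran from 321 to 474 and from 485 to 1497 CPM for fibroblasts, from 71.0 to 141.0 and from 96.4 to 379 CPM for endothelium, from 19.1 to 30.8 and from 38.6 to 113.8 CPM for macrophages, and from 126.6 to 249.6 and from 277 to 1080 CPM for erythroid cells. Medians of the other marker sums were higher in labelled knockouts too, all with overlap between the groups. They went from 108600 to 158500 CPM for muscle fibre, 50.3 to 99.8 CPM for tendon and 17.9 to 59.1 CPM for Schwann cells. For smooth muscle and pericytes they went from 306 to 380 CPM, for adipocytes from 91.1 to 105.7 CPM and for the neuromuscular junction from 151.3 to 184.9 CPM. The part of these cells in the collagen rises was not tested. With the mitochondrial mRNA level of each library as a covariate, 2 of 12 collagens rose, Col1a1 (log2 fold change 1.02, edgeR adjusted p = 0.0389) and Col1a2 (0.96, edgeR adjusted p = 0.0166). The covariate itself nearly separated the female groups, with 6 of 7 labelled knockouts above every control. A fit with it therefore cannot tell genotype and this level apart.

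The type I chains rose most clearly in female ribosomal RNA. Col1a2 ran from 24.3 over 37.0 to 58.7 CPM in controls and from 72.9 over 114.5 to 242 CPM in labelled knockouts, without overlap (log2 fold change 1.98 ± 0.25, edgeR adjusted p = 1.56e-06). Col1a1 ran from 14.7 over 15.6 to 33.1 CPM and from 24.4 over 54.2 to 117.6 CPM (1.91 ± 0.26, edgeR adjusted p = 3.65e-06). In Col1a1, female control 18 was the high control and reached into the labelled knockouts. Col3a1 ran from 10.1 over 16.2 to 26.04 CPM and from 22.6 over 46.6 to 88.0 CPM (1.65 ± 0.28, edgeR adjusted p = 0.000107). Type V followed, with Col5a1 at 1.99 ± 0.46 and Col5a3 at 1.65 ± 0.37 (edgeR adjusted p = 0.0028 and 0.00186), while Col5a2 did not pass (1.28 ± 0.55, edgeR adjusted p = 0.106).

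Type VI chains rose in female ribosomal RNA as well. Col6a3 ran from 11.8 over 18.2 to 25.7 CPM in controls and from 31.9 over 51.6 to 119.2 CPM in labelled knockouts, without overlap (1.74 ± 0.29, edgeR adjusted p = 6.55e-05). Col6a1 ran from 0 over 4.58 to 11.8 CPM and from 10.1 over 18.9 to 27.5 CPM (1.95 ± 0.32, edgeR adjusted p = 4.79e-05). Col6a2 ran from 3.67 over 4.05 to 11.8 CPM and from 10.1 over 16.3 to 42.3 CPM (1.90 ± 0.36, edgeR adjusted p = 0.00036). For Col6a1, 6 of 7 labelled knockouts were above every control, and for Col6a2 4 of 7.

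The basement membrane chains, which had not passed in total RNA, rose here: Col4a1 ran from 10.4 over 15.6 to 30.8 CPM in controls and from 20.96 over 39.0 to 95.4 CPM in labelled knockouts (1.45 ± 0.30, edgeR adjusted p = 0.000986). Col4a2 ran from 7.51 over 9.78 to 16.04 CPM and from 11.7 over 35.3 to 56.4 CPM (1.67 ± 0.28, edgeR adjusted p = 6.17e-05). Of the labelled knockouts, 4 were above every control for Col4a1 and 6 for Col4a2. With the mitochondrial covariate the log2 fold changes were 0.35 for Col4a1 and 0.82 for Col4a2, and neither passed (edgeR adjusted p = 0.661 and 0.203). Col22a1 also rose (1.12 ± 0.36, edgeR adjusted p = 0.0297), from a median of 3.70 to 9.22 CPM, the opposite of its lower level in total RNA. That call was lost in 6 of 14 refits without 1 library, with log2 fold changes from 1.02 to 1.25, whereas the other 10 calls held in all 14.

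**Figure D4:**
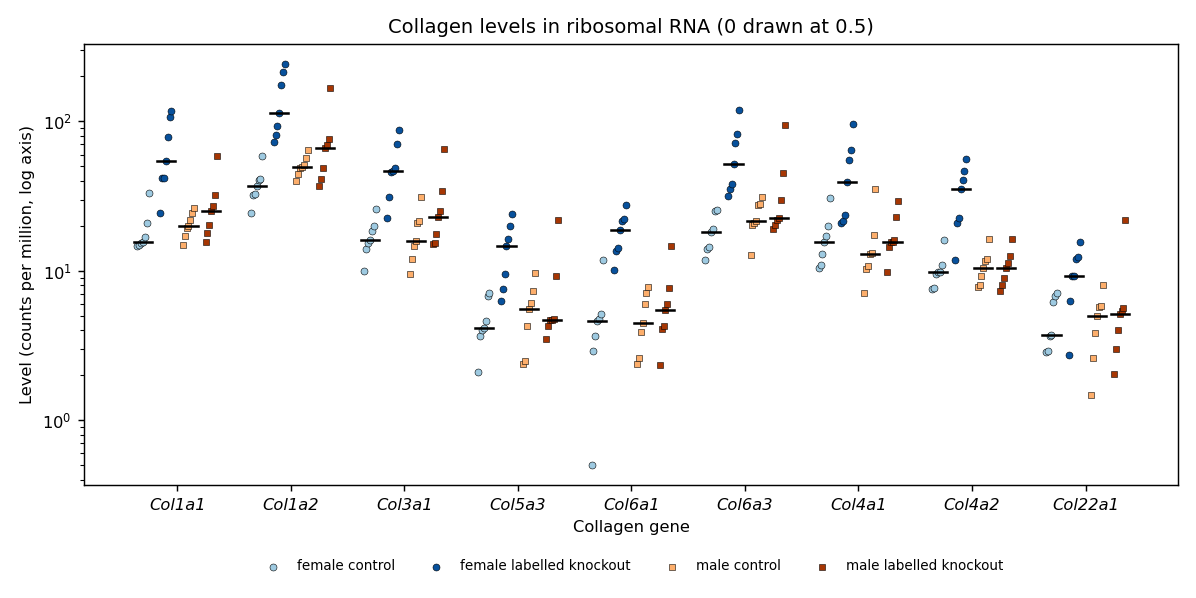
Level of 9 collagens in every ribosomal library (CPM, log axis), with 1 point per library, 7 libraries per group, a bar at the group median, and 0 drawn at 0.5. Female labelled knockouts lie highest, and for Col1a2 and Col6a3 above all female controls, while the male groups overlap. Male labelled knockout 2 is the highest of its group for 8 of the 9 and the lowest for Col4a2.

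The pathway lists were also counted in female ribosomal RNA, where 8.44% of all genes rose and 8.41% fell. Of the genes tested, 3 of 16 of collagen processing rose and 3 of 4 of breakdown and its inhibitors. Of receptors 2 of 4 rose and of the TGF-beta pathway 2 of 16. No gene of these lists fell. The processing genes were Sparc, a collagen-binding protein (1.05 ± 0.18), Loxl1, a crosslinking oxidase (1.08 ± 0.31), and Mia2, a gene of cargo export (0.44 ± 0.13). Timp2, a protease inhibitor (1.11 ± 0.15), Mmp14 (1.84 ± 0.32) and Timp3 (0.72 ± 0.20) were those of breakdown. The receptors were Ddr2, a kinase that binds fibrillar collagen (1.07 ± 0.25), and Itga1 (1.36 ± 0.36), and Ltbp3 (1.29 ± 0.21) and Ltbp4 (1.73 ± 0.42) hold latent TGF-beta in the matrix. In male ribosomal RNA only Mia2 rose (0.49 ± 0.12) and only Tgfb2 fell (-0.75 ± 0.17) in these lists, where 4.09% of all genes rose and 4.87% fell.

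In ribosomal RNA of males no collagen passed, where 8.96% of all genes did in either direction. At an unadjusted p under 0.05 there were also 0 of 12 in edgeR, and DESeq2 and limma-voom called 0. Col1a2 ran from 40.1 over 49.2 to 64.3 CPM in controls and from 37.1 over 66.6 to 168 CPM in labelled knockouts (0.27 ± 0.24, edgeR adjusted p = 0.533). Col4a2 ran from 7.82 over 10.4 to 16.4 CPM and from 7.30 over 10.5 to 16.2 CPM (-0.01 ± 0.25, edgeR adjusted p = 0.99). The highest value of Col1a2 and the lowest of Col4a2 both came from male labelled knockout 2, the library with 160313 counts. Mitochondrial mRNA in males ran from 1280 over 1777 to 7945 CPM in controls and from 1146 over 1424 to 16920 CPM in labelled knockouts, with 1 of 7 labelled knockouts above every control.

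The 2 sexes differed in this contrast for 5 of 12 collagens, all with a smaller value in males, where 1.54% of all genes had a lower value. These were Col1a1 (difference of log2 fold changes, male minus female, -1.75 ± 0.35), Col1a2 (-1.71 ± 0.35), Col4a2 (-1.68 ± 0.38), Col6a1 (-1.88 ± 0.44) and Col6a3 (-1.47 ± 0.39), with edgeR adjusted p = 0.00646, 0.0065, 0.0125, 0.0163 and 0.0309. With the mitochondrial covariate none of the 12 differed (edgeR), but that covariate nearly separated the female groups, as given above, so this fit cannot decide the question. Left-out libraries moved the count between 4 and 10. It was 10 without female labelled knockout 10 and 8 without female control 19 or female labelled knockout 1. In controls, male and female ribosomal RNA differed in no collagen (edgeR, 0 of 12 also at an unadjusted p under 0.05, and 0 by DESeq2), where 7.63% of all genes differed.

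**Figure D5:**
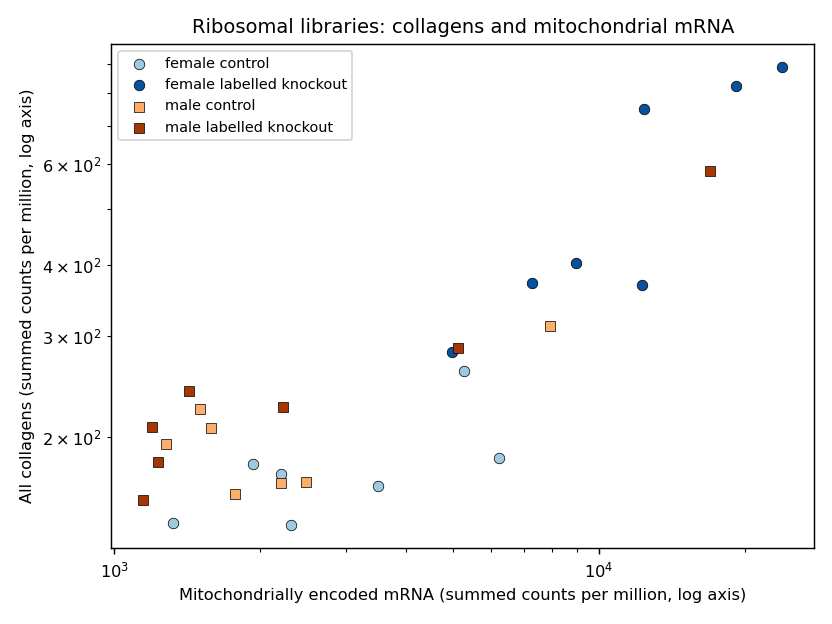
Summed level of all collagens against the summed level of mitochondrially encoded mRNA in the 28 ribosomal libraries (CPM, both axes logarithmic), with 1 point per library. Female labelled knockouts lie between 281 and 888 CPM of collagens and between 4977 and 23930 CPM of mitochondrial mRNA, a range that also holds male labelled knockout 2 (584 CPM of collagens), male labelled knockout 12 (286 CPM) and male control 20 (312 CPM). Female controls 18 and 19 lie within it for mitochondrial mRNA (5266 and 6229 CPM) but below it for collagens (260.4 and 183.5 CPM).

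The last comparison asked whether the contrast differed between ribosomal and total RNA. In females it was larger in ribosomal RNA for 7 of 31 collagens, where 1.85% of all genes had a larger value, and smaller for none, where 1.61% had a smaller value. The difference of log2 fold changes was 1.49 ± 0.26 for Col4a2, 1.25 ± 0.27 for Col4a1, 1.33 ± 0.33 for Col6a1, 1.47 ± 0.40 for Col22a1, 1.02 ± 0.28 for Col1a2, 1.004 ± 0.28 for Col6a3 and 1.15 ± 0.33 for Col5a3 (edgeR adjusted p = 0.000338, 0.00582, 0.0149, 0.0268, 0.0293, 0.0314 and 0.038). With the mouse as a replicate block, 4 of the 7 passed: Col4a2 (1.44), Col4a1 (1.19), Col6a1 (1.32) and Col22a1 (1.53), with edgeR adjusted p = 0.00263, 0.0251, 0.028 and 0.0294. The count was 3 without female control 15, female labelled knockout 5 or female labelled knockout 12 in ribosomal RNA, and 4 without female labelled knockout 2. Mitochondrial mRNA and markers of other cells moved with the ribosomal values, as given above, and their part in this difference was not tested. In males no collagen passed (edgeR, 1 of 31 at an unadjusted p under 0.05, and 0 by DESeq2), where 0.128% of all genes did.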

How the data were processed

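Per the labels, 56 libraries from gastrocnemius were made with a kit that reads the 3' end of transcripts. The submitters' processing notes name UMI-tools, STAR, HTSeq, GRCm39 and DESeq2 1.40.1 without roles. The authors deposited 1 table of raw read counts per gene. Its 5 summary lines were left out, and reads outside genes made up 9.54% to 23.4% of total RNA libraries. Here, genes kept by filterByExpr were scaled by TMM and tested with edgeR's quasi-likelihood test, with standard errors from the same fits and Benjamini-Hochberg adjustment over all genes at 0.05. Ribosomal and total RNA were fitted apart, and the 56 libraries together for contrasts between RNA types. That joint fit treated the libraries of a shared number as independent, and the mouse as a block was an alternative. Tests were checked on simulated data. Ribosomal and total libraries of the same number were taken as from 1 mouse, which the labels do not state, and their deviations correlated by 0.07, 0.33, -0.17 and 0.16 on average in female controls, female knockouts, male controls and male knockouts. Values are named for collagens of types I, III, IV and VI, called collagens of at least 5 CPM (up to 8 of lowest p per contrast), the 4 most and 4 least depleted, and up to 4 called genes per pathway list. Members and lists were chosen with earlier results of these data known. Shares of all genes are given for adjusted p only. They were not counted for unadjusted p or for groups without overlap. Alternatives were DESeq2, limma-voom, other scaling, no filter, 14 libraries alone, covariates, blocks and left-out libraries. A result of the TGF-beta list is not reported here.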

Additional observations from a re-analysis of the deposited data

Results flagged for a closer look

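The chains of types I, III, IV and VI named above, Col14a1, Col22a1 and the sum of all collagens were each screened in every group of 7 libraries. In 16 of these 88 screens 1 library lay far from the other 6. Chance gives about 1 in 20 for independent screens, but these share libraries, so the 2 rates cannot be compared. Of the 16, 7 came from the shallowest library, ribosomal male labelled knockout 2. It had 58.4 CPM of Col1a1 (others 15.7 to 32.0), 168 CPM of Col1a2 (37.1 to 76.0), 65.7 CPM of Col3a1 (15.02 to 34.1), 94.8 CPM of Col6a3 (18.97 to 45.2), 14.6 CPM of Col14a1 (1.41 to 3.64), 21.9 CPM of Col22a1 (2.05 to 5.63) and 584 CPM of all collagens summed (155 to 286). In total RNA the mouse of that number was low in Col6a1, at 46.7 CPM (others 80.4 to 97.6).

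Ribosomal female control 18 had 33.1 CPM of Col1a1 (others 14.7 to 20.8), 11.8 CPM of Col6a2 (3.67 to 6.30) and 260 CPM of all collagens (140 to 184). Ribosomal male control 20 had 35.1 CPM of Col4a1 (7.09 to 17.4) and 312 CPM of all collagens (159 to 224). Ribosomal female control 21 had 16.04 CPM of Col4a2 (7.51 to 11.01), ribosomal female labelled knockout 5 had 42.3 CPM of Col6a2 (10.1 to 20.0), and total RNA of male control 26 had 35.9 CPM of Col22a1 (17.8 to 23.1).

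The knockout contrast in ribosomal RNA differed between the sexes, by edgeR's test of the difference, for Col1a1 (-1.75, male minus female, log2), Col1a2 (-1.71), Col4a2 (-1.68), Col6a1 (-1.88) and Col6a3 (-1.47). In females it differed between RNA types for Col4a2 (1.49, ribosomal minus total, log2), Col4a1 (1.25), Col6a1 (1.33), Col22a1 (1.47), Col1a2 (1.02), Col6a3 (1.004) and Col5a3 (1.15).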

How the results depend on the processing

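No called collagen changed direction under the alternatives run. Of 4778 recomputed values, for called and uncalled collagens together, 61 had the opposite sign. All 61 were of collagens not called as first fitted, with values of up to 0.24 (log2) there, and none was called under the alternative. In male total RNA without the libraries over 19%, Col4a1 was at -0.05 and Col4a2 at -0.05. Single-collagen results were recomputed for collagens called as first fitted and for the chains of types I, III, IV and VI whether called or not. Those not called had no call to lose, but they count in the 110, 43, 53, 35 and 75 below. Called results in the 110 were 11 in female ribosomal RNA, 5 for the sex difference there, and 14 and 10 in female and male total RNA. There were also 6 between controls and 2 between labelled knockouts in total RNA, and 7 for ribosomal minus total RNA in females. Calls lost were 0 of 110 each with DESeq2 and with RLE scaling, 3 of 110 with limma-voom and 5 of 110 without the filter. With the 14 libraries of a contrast fitted alone they were 2 of 43, and without ribosomal libraries under 750000 counts 3 of 53. With the mitochondrial covariate they were 14 of 35, where the called results were 11 in female ribosomal RNA and 5 for the sex difference. Without the total RNA libraries that had more than 19% of reads outside genes they were 15 of 75. There 14 female and 10 male knockout results were called, with 6 between controls, 2 between labelled knockouts and 7 for ribosomal minus total RNA. For female ribosomal RNA the 11 that rose became 7 in the 14 libraries alone, where only 7 collagens were tested, and 2 with the mitochondrial covariate. The 5 that differed between sexes in ribosomal RNA became 9 with no filter and 0 with the covariate. The 0 of male ribosomal RNA became 2 with no filter (1 higher, 1 lower), and the 0 between controls of the sexes became 1 with no filter and 1 with the covariate. In male total RNA the 9 that rose became 1 without the libraries over 19%, and the 1 that fell became 2 with no filter, 2 in the 14 libraries alone and 0 without those libraries. Without them male controls were higher than female controls in 10 collagens, not 6, and male labelled knockouts in 1, not 2. The 7 with a larger contrast in female ribosomal than total RNA became 4 with the mouse as a replicate block and 4 without ribosomal libraries under 750000 counts. The cause of these changes was not tested. With the block, 31 collagens in controls and 30 in labelled knockouts were lower in ribosomal than in total RNA, and 0 passed for the contrast in males. Left-out replicates gave 9 to 15 that rose in female total RNA, 5 to 12 in male total RNA with 0 to 2 that fell, 10 to 13 in female ribosomal RNA, 0 in male ribosomal RNA, 4 to 10 for the sex difference, 2 to 9 between controls of the sexes in total RNA, 1 to 2 between labelled knockouts, 30 to 31 lower in ribosomal than total RNA, and 3 to 8 for the ribosomal minus total contrast in females. Ribosomal collagen counts, 50 to 819 per library, limit what could be tested there to 12 genes. Nothing in the labels says how mice were housed or processed together, so p-values within an RNA type measure the spread between these mice. Those between RNA types measure the spread between libraries, with the shared number ignored except in the fit with the block.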
